A study of Mus musculus with 6 samples.

Results

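The 10 genes described here encode the CRTC coactivators, CREB and its relatives, the salt-inducible kinases and a cAMP phosphodiesterase: Crtc1, Crtc2, Crtc3, Creb1, Crem, Atf1, Sik1, Sik2, Sik3 and Pde4b. They were taken by symbol from a table of 54532 mouse genes, and were picked because the phosphatase partner SMEK1 is known to act on CRTC proteins. The rule itself uses no measured value, though the genes and the lists below were chosen with earlier results of these data known. RNA was sequenced from 3 SMEK1 knockdown and 3 WT libraries of BV2 cells, a line of mouse microglia immortalised with a retrovirus that carries oncogenes. The medium of both groups was DMEM with serum and antibiotics, and no other genotype, agent or time is given. The design text counts both groups among knockdown derivatives, nothing in the sources tells whether a control construct was put into the WT cells, and the labels name no separate culture for each library. The p-values therefore measure the spread between these libraries, which may be technical.

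When a Gs-coupled receptor is engaged, adenylyl cyclase makes cAMP, cAMP frees the catalytic subunits of protein kinase A, and the kinase phosphorylates CREB bound to the cAMP response element. CRTC proteins add to CREB's activity once they lose the phosphates that tether them to 14-3-3 proteins in the cytoplasm; salt-inducible kinases add those phosphates, and calcineurin and other phosphatases remove them. SMEK1, the product of Ppp4r3a, is a regulatory subunit of protein phosphatase 4, and in mouse liver the complex dephosphorylates CRTC2. In macrophages and microglia, cAMP signalling is known for restraining inflammatory gene expression, and Pde4b ends it by hydrolysing cAMP. The values below are transcript levels; phosphorylation, protein amounts and the location of CRTC proteins were not analysed here.

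The knockdown libraries held 18627425 to 21131557 counts each, and the WT libraries 18036591 to 18708438. Ppp4r3a, the targeted gene, had 48, 122 and 94 counts in the knockdown libraries and 335, 227 and 260 counts in the WT libraries, with no overlap (4.06 ± 1.47 in knockdown against 15.6 ± 2.29 in WT libraries as TMM-scaled CPM, SD, n = 3 each; adjusted p = 8.22e-05). Of 12 microglia and macrophage markers 10 were tested, 4 were called higher and 5 lower, and their summed level was 3466 to 3820 CPM in knockdown and 3863 to 4283 CPM in WT libraries. The homeostatic markers were nearly absent: P2ry12 had 0 counts in every knockdown library and 0 to 2 in WT libraries, and Cx3cr1 had 8 to 11 counts in knockdown and 1 to 7 in WT libraries. The marker lists of neurons, astrocytes, endothelial cells and fibroblasts each summed to at most 0.648 CPM in any library. The oligodendrocyte list summed to 7.15 to 7.26 CPM in knockdown and 2.53 to 2.81 CPM in WT libraries, and Mbp was its single tested member. The part of these markers in the results below was not tested. As in any bulk sample, fewer cells expressing a gene and less RNA per cell cannot be told apart. One pattern within groups, which carried 64.1% of the variance left inside them, set knockdown A and WT B against knockdown B and WT A and moved with gene length.

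CREB binds the palindrome TGACGTCA and, less tightly, its shorter form TGACG, so the 250 bases upstream of each start site in the RefSeq promoter table (GRCm38.p6) were searched on both strands; the short form reads CGTCA on the other strand, and copies inside a palindrome were counted once, as the palindrome. Of 32851 such windows of all genes, 1.55% held the palindrome and 17.8% held either form; counted per gene, over all windows a gene has, these shares were 1.77% and 19.8% of 27025 genes. Of the 10 genes 7 matched the table and Crtc2, Sik1 and Crem did not. None of the 7 held the palindrome, and Sik3, Atf1 and Pde4b held the short form, Pde4b only in the first of its 4 windows. All 4 Pde4b windows lie inside the annotated gene, which begins at chr4:102087543, and the bases upstream of that start were not searched. The windows of those 3 genes are shown because all of them changed in the knockdown, beside that of Crtc1, which also changed and holds neither form; capitals mark the motif. The window of Sik3 is chr9:46012570-46012819 on the plus strand, that of Atf1 chr15:100227609-100227858 plus, the first of 4 Pde4b windows chr4:102421305-102421554 plus and that of Crtc1 chr8:70439574-70439823 minus.
Sik3: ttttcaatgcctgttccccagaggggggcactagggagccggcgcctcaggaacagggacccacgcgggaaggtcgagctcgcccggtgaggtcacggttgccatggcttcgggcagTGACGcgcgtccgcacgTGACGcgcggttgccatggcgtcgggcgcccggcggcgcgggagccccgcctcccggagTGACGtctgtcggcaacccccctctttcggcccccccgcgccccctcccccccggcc
Atf1: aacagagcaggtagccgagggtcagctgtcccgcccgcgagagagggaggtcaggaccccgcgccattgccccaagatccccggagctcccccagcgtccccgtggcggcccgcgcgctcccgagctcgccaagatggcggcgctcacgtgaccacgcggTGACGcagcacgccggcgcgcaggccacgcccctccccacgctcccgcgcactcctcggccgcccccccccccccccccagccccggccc
Pde4b: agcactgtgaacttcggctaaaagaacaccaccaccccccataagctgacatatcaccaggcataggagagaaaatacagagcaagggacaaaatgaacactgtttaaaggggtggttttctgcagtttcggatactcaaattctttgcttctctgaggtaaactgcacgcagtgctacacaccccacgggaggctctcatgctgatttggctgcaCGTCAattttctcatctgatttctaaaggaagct
Crtc1: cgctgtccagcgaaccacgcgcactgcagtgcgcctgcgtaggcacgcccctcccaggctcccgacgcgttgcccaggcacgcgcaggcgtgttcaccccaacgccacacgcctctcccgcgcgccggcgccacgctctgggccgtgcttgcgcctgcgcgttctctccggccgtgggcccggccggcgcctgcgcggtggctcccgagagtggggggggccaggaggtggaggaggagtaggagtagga
The motif began 133, 116 and 57 bases before the start site in Sik3, 90 bases before it in Atf1 and 34 bases before it in the first Pde4b window. A match describes the letters of the window and does not show binding.

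All 10 genes passed the filter on low counts, so each was tested. In the knockdown, Crtc1 and Atf1 rose, Crtc2, Sik3 and Pde4b fell, and the other 5 were not called at an adjusted p under 0.05. Pde4b fell furthest, to 14.2% of its WT level, and Sik3 to 59.0%; the changes of the other 3 were smaller, with a 1.34-fold rise of Crtc1, a 1.33-fold rise of Atf1 and a drop of Crtc2 to 77.6%. Across the transcriptome, 40.1% of the 12269 genes tested were called, 20.5% higher and 19.6% lower, and the groups did not overlap for 50.9%. Scaling by library totals in place of TMM moved the median of all genes by 0.16 and made 71.3% of 5461 calls higher, and these 5 genes stayed called in the same directions. Counts of 5 of 10 called (2 higher, 3 lower) and 5 of 10 without overlap are therefore near that background. The median log2 fold change of the 10 genes was -0.25, beside 0.01 over all genes tested. Of all genes tested, 1.2% changed by at least as much as Pde4b and 16.9% by at least as much as Sik3.

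**Figure D1:**
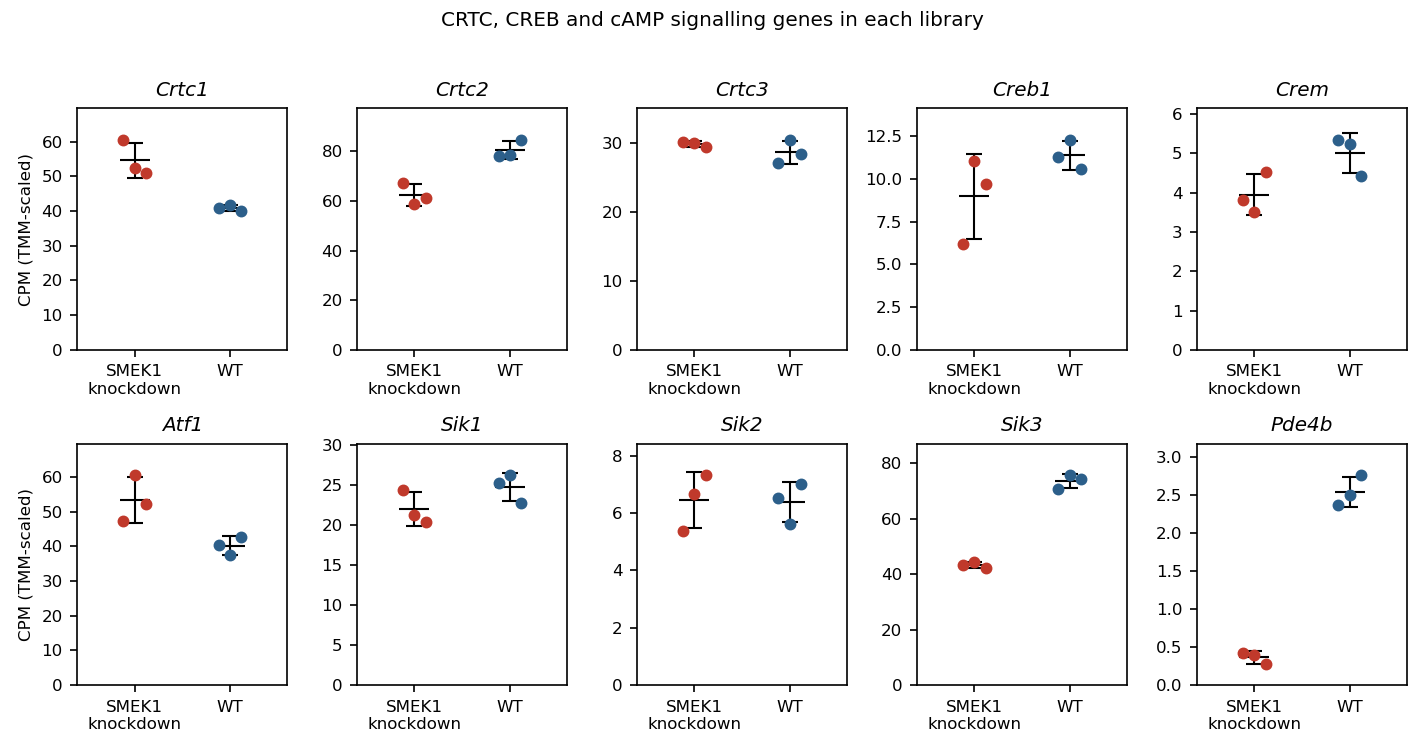
Normalised level (TMM-scaled CPM, 1 panel per gene, each axis from 0) of the 10 genes in each library, with SMEK1 knockdown on the left and WT on the right; points are libraries, and horizontal and error bars give the mean ± SD. Crtc1 and Atf1 sit higher in all 3 knockdown libraries than in any WT library, Crtc2, Sik3 and Pde4b sit lower, and the groups overlap in the other 5 panels.

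The CRTC coactivators bind CREB and recruit the transcription machinery. Crtc1 (ENSMUSG00000003575, chr8:70382355-70439579, minus strand, GRCm38), the member best known from neurons, had 60.5, 52.3 and 51.0 CPM in knockdown A, B and C, against 40.8, 41.7 and 39.8 CPM in WT A, B and C. Every knockdown library lay above every WT library, and knockdown A was highest. Its mean was 54.6 ± 5.14 CPM in knockdown and 40.8 ± 0.935 CPM in WT libraries (SD, n = 3 each), a log2 fold change of 0.42 (SE 0.09, 95% interval 0.22 to 0.62, adjusted p = 0.00394).

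Crtc2 (ENSMUSG00000027936, chr3:90254163-90264125, plus strand), the member through which glucagon acts on gluconeogenic genes in mouse liver, went the other way. It had 67.4, 58.9 and 61.0 CPM in knockdown A, B and C, against 78.0, 78.5 and 84.6 CPM in WT A, B and C, again with no overlap. The means were 62.4 ± 4.41 CPM in knockdown and 80.4 ± 3.64 CPM in WT libraries (log2 fold change -0.37, SE 0.08, 95% interval -0.55 to -0.18, adjusted p = 0.00441). Crtc3 (ENSMUSG00000030527, chr7:80586627-80688877, minus strand), which in mouse macrophages takes part in the induction of Il10, had 30.2, 29.99 and 29.4 CPM in knockdown libraries and 27.1, 30.4 and 28.4 CPM in WT libraries. Its groups overlapped, and the interval of its log2 fold change of 0.06 ran from -0.16 to 0.28 (adjusted p = 0.661).

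Creb1, Crem and Atf1 encode the leucine zipper factors that bind the response element as dimers. Atf1 (ENSMUSG00000023027, chr15:100227819-100261244, plus strand) was by far the most abundant of them per deposited gene length. It had 47.3, 60.5 and 52.1 CPM in knockdown A, B and C, against 40.4, 37.4 and 42.8 CPM in WT A, B and C. All knockdown libraries were above all WT libraries, with means of 53.3 ± 6.69 CPM in knockdown and 40.2 ± 2.69 CPM in WT libraries (log2 fold change 0.41, SE 0.11, 95% interval 0.17 to 0.64, adjusted p = 0.00982). Of 37 other tested genes within 1 Mb of Atf1, 19 were called higher and 0 lower, with a median log2 fold change of 0.53. Over all genes tested, 20.5% were called higher and 19.6% lower. Around Crtc1, which also rose, 6 of 62 such genes were called higher and 17 lower. The part of the neighbourhood in Atf1's rise was not tested.

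Creb1 (ENSMUSG00000025958, chr1:64532645-64604548, plus strand), the founding member of the family, had 6.22, 11.1 and 9.71 CPM in knockdown A, B and C, against 11.3, 12.3 and 10.6 CPM in WT A, B and C. Knockdown A stood lowest, knockdown B overlapped the WT range, and the coefficient of variation was 27.8% in knockdown and 7.51% in WT libraries. Its log2 fold change was -0.34 (SE 0.20, 95% interval -0.78 to 0.11, adjusted p = 0.21), and it was called (adjusted p = 0.0373) only where the within-group pattern described above entered the fit as a covariate, out of 18 alternatives. Crem (ENSMUSG00000063889, chr18:3266048-3337748, minus strand) encodes activators and, from an internal promoter, the repressor ICER, which a count per gene adds together. It had 3.81, 3.51 and 4.52 CPM in knockdown libraries and 5.34, 5.25 and 4.41 CPM in WT libraries; WT C fell below knockdown C, so the groups overlapped (log2 fold change -0.34, SE 0.20, 95% interval -0.78 to 0.10, adjusted p = 0.196). GENCODE M21 gives Crem 39 transcripts, and 8.01% of its exonic bases lie antisense to Gm6225.

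The salt-inducible kinases phosphorylate CRTC proteins and class IIa histone deacetylases. Sik3 (ENSMUSG00000034135, chr9:46012820-46224194, plus strand) had 43.4, 44.5 and 42.2 CPM in knockdown A, B and C, against 70.6, 75.6 and 74.3 CPM in WT A, B and C. The groups were far apart and each was tight, with means of 43.4 ± 1.14 CPM in knockdown and 73.5 ± 2.61 CPM in WT libraries (log2 fold change -0.76, SE 0.08, 95% interval -0.93 to -0.59, adjusted p = 2.16e-05). Among the 12 other tested genes within 1 Mb of Sik3, 2 were called higher and 2 lower.

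Sik1 (ENSMUSG00000024042, chr17:31844248-31855792, minus strand), itself a known CREB target that feeds back on CRTC, had 24.4, 21.3 and 20.3 CPM in knockdown libraries and 25.3, 26.2 and 22.8 CPM in WT libraries. Knockdown A lay inside the WT range, and the log2 fold change was -0.17 (SE 0.12, 95% interval -0.43 to 0.08, adjusted p = 0.266). The deposited table gives Sik1 a length of 4511 bases, against 5133 exonic bases in GENCODE M21, so its level per length depends on the annotation. Sik2 (ENSMUSG00000037112, chr9:50892801-51009073, minus strand), a kinase of CRTC2 in adipose tissue, had 5.38, 6.66 and 7.32 CPM in knockdown libraries and 6.53, 5.61 and 7.004 CPM in WT libraries. Its log2 fold change was 0.02 (95% interval -0.39 to 0.43, adjusted p = 0.947), and 15.0% of its exonic bases are antisense to Ppp2r1b, from which its reads cannot be told apart where counting ignored strand.

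Pde4b (ENSMUSG00000028525, chr4:102087543-102607259, plus strand), a phosphodiesterase that inflammatory stimuli induce in macrophages, was the scarcest of the 10 genes. Its counts were 8, 9 and 6 in the knockdown libraries A to C, against 44, 42 and 47 in the WT libraries A to C. On the CPM scale these were 0.418, 0.400 and 0.271 in knockdown libraries and 2.37, 2.51 and 2.77 in WT libraries, far from overlapping. The log2 fold change was -2.80 (SE 0.32, 95% interval -3.50 to -2.09, adjusted p = 4.64e-05). With 23 counts over the knockdown libraries and 133 over the WT libraries, the size of the drop is less exact than that of Sik3.

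**Figure D2:**
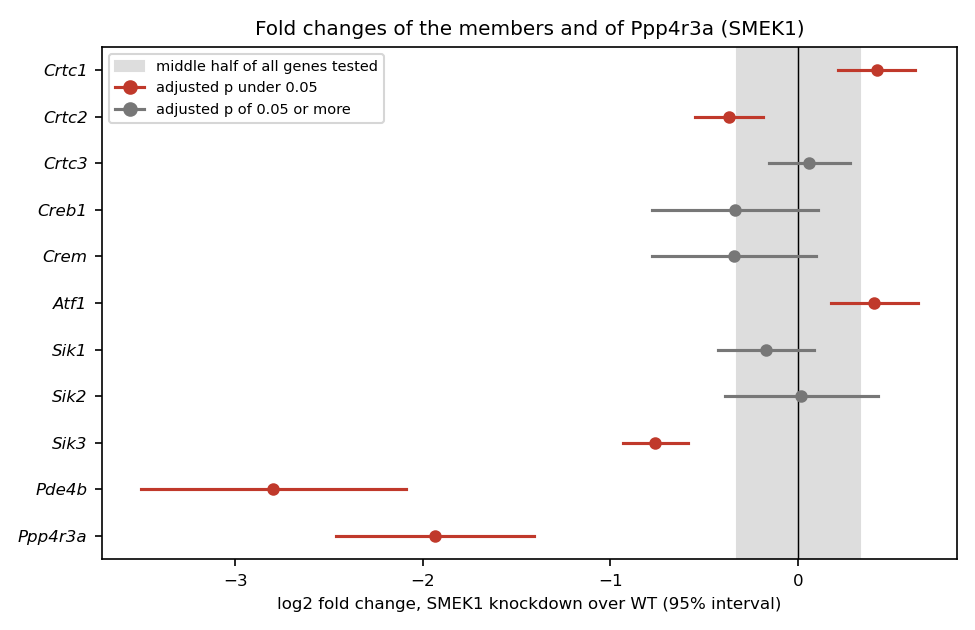
Log2 fold change of the 10 genes and of Ppp4r3a, SMEK1 knockdown over WT, with 95% intervals from the quasi-likelihood fit; red marks an adjusted p under 0.05, and the grey band spans the quartiles of all genes tested (-0.32 to 0.33). Crtc1 and Atf1 lie to the right of 0, Crtc2, Sik3 and Pde4b to the left, and the intervals of the other 5 genes cross 0.

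Levels can be set side by side between genes only per length, in the deposited FPKM (fragments scaled by gene length and by library). For each of the genes but Sik1, that length equals all its exonic bases in GENCODE M21, over all annotated transcripts. The order of genes and the shares below depend on these lengths, which need not be those of the transcripts present. In the knockdown libraries the mean levels ran from Atf1 at 17.2 FPKM through Crtc2 at 15.1, Crtc1 at 4.84, Sik1 at 4.83, Sik3 at 4.61, Crtc3 at 3.00, Sik2 at 0.669, Crem at 0.663 and Creb1 at 0.647 to Pde4b at 0.0340. Neighbours overlapped between Atf1 and Crtc2, among Crtc1, Sik1 and Sik3, and among Sik2, Crem and Creb1. In the WT libraries the order was Crtc2 at 19.6 FPKM, Atf1 at 13.1, Sik3 at 7.87, Sik1 at 5.47, Crtc1 at 3.64, Crtc3 at 2.90, Crem at 0.846, Creb1 at 0.826, Sik2 at 0.667 and Pde4b at 0.241. Among neighbours in the WT order, only Crem and Creb1 overlapped. Atf1 thus led in knockdown and Crtc2 in WT libraries, and on the deposited lengths Sik3 overlapped Sik1 in knockdown and stood above it in WT libraries.

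Within each family the mix of transcripts differed between the groups. Crtc1 made up 21.1 ± 0.701% of the summed CRTC FPKM in knockdown and 13.9 ± 0.689% in WT libraries, and Crtc2 made up 65.8 ± 0.694% in knockdown and 74.9 ± 1.22% in WT libraries (SD, n = 3 each). Sik3 held 45.6 ± 1.56% of the SIK sum in knockdown and 56.2 ± 1.67% in WT libraries, and Sik1 held 47.7 ± 2.71% in knockdown and 39.0 ± 2.04% in WT libraries. In the knockdown, Sik1 was above Sik3 in library A and below it in B and C, and shares within the SIK family rest on the deposited length of Sik1, so these data set no order between the 2 genes there. Atf1 held 92.9% of the sum of Atf1, Creb1 and Crem in knockdown and 88.6% in WT libraries. On the authors' scaling of FPKM, the CRTC genes summed to 22.9 ± 1.86 FPKM in knockdown and 26.1 ± 0.795 in WT libraries. The SIK sums were 10.1 ± 0.503 FPKM in knockdown and 14.001 ± 0.395 in WT libraries. Atf1, Creb1 and Crem summed to 18.5 ± 2.00 FPKM in knockdown and 14.8 ± 0.752 in WT libraries. As summed CPM, which are not divided by length, CRTC genes gave 141 to 158 in knockdown and 146 to 153 in WT libraries, with overlap. The CPM sums of Atf1, Creb1 and Crem also overlapped (57.3 to 75.1 in knockdown, 55.0 to 57.8 in WT libraries). Those of the SIK genes did not (69.8 to 73.2 in knockdown, 102 to 107 in WT libraries).

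A ratio of 2 genes within a library does not depend on how libraries are scaled. Crtc1 over Crtc2 was 0.329, 0.325 and 0.306 in knockdown A, B and C, against 0.191, 0.194 and 0.172 in WT A to C. The knockdown ratios were all higher, and an exact two-sided permutation test gave p = 0.1, the smallest that 3 against 3 libraries allow. Sik3 over Sik1 averaged 0.960 ± 0.0838 in knockdown and 1.44 ± 0.120 in WT libraries, Sik3 over Sik2 6.998 ± 1.19 in knockdown and 11.9 ± 1.64 in WT libraries, and Atf1 over Creb1 27.6 ± 5.68 in knockdown and 15.96 ± 2.24 in WT libraries. None of these 3 ratios overlapped between groups, each exact p was again 0.1, and so was each value adjusted over the 4 ratios, which were chosen after the values were seen.

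**Figure D3:**
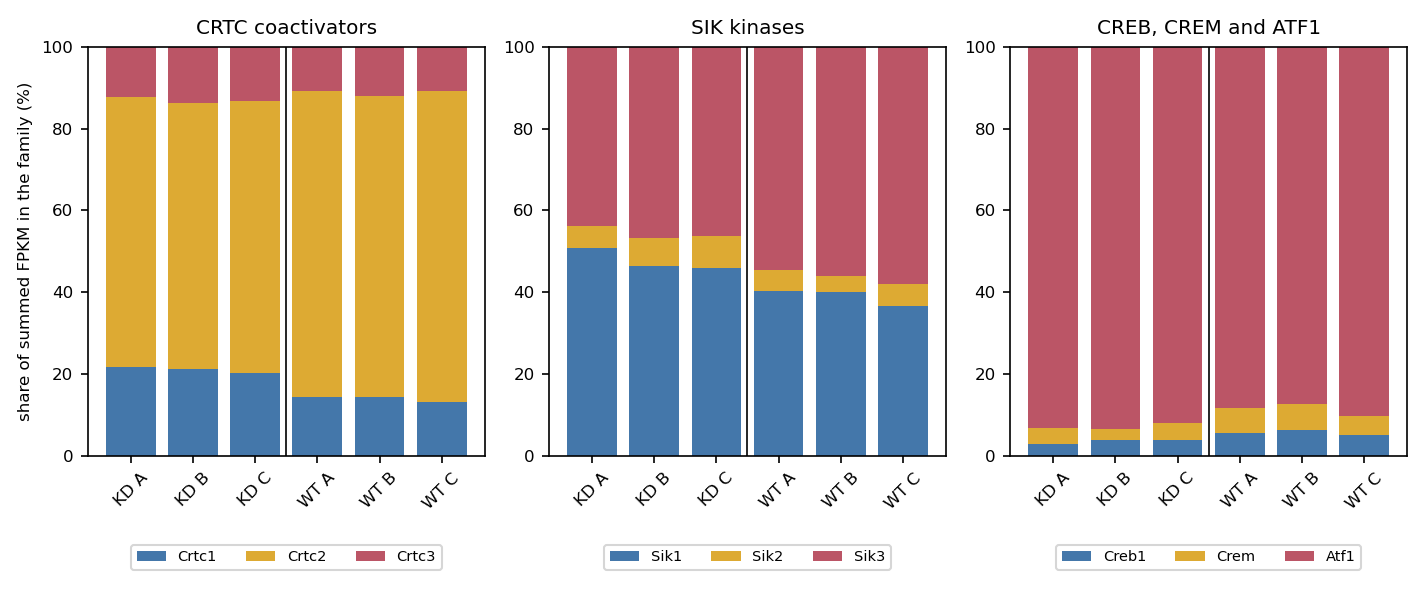
Share of each gene in the summed FPKM of its family (percent, stacked bars, 1 bar per library), with SMEK1 knockdown libraries left of the vertical line and WT libraries right of it. Crtc1 and Sik1 take larger shares in the knockdown bars (21.1% and 47.7% on average) than in the WT bars (13.9% and 39.0%), and Crtc2 and Sik3 take smaller ones.

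Around the 10 genes, 134 further genes of the pathway were listed, 98 were tested, and 23 were called higher and 23 lower (46.9%, beside 40.1% of all genes). Their median log2 fold change was 0.03. With libraries scaled by their totals, 34 were called higher and 20 lower. Among 11 tested relatives of CREB, 3 were called higher and 2 lower (45.5%), with a median log2 fold change of 0.14. Crebzf, a zipper protein that binds other transcription factors, fell to 35.2 ± 1.33 CPM in knockdown, against 59.8 ± 0.958 CPM in WT libraries (log2 fold change -0.77, adjusted p = 3.06e-05). Crebrf, Creb3l4, Crebl2 and Creb3l1 were the other calls, with log2 fold changes of -1.16, 1.36, 0.62 and 0.36, and each lost its call under 6 to 10 alternatives. Creb3l4 lost it without knockdown B, WT A or WT B (adjusted p = 0.111, 0.0836 and 0.101), and Creb3l1 without knockdown A or C or without WT A or C (0.0785, 0.0626, 0.0837 and 0.13). Crebl2 lost it without any 1 library other than WT A (0.0513 to 0.11). Crebrf, whose groups overlapped, lost it without knockdown A or C or without WT A or C (0.0538 to 0.151), and without WT A its log2 fold change was -0.68. The list thereby fell to 1 called higher without any single library other than WT A, and to 1 called lower without knockdown A or C or WT A or C.

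Of 27 tested regulators of CRTC and SIK proteins 7 were called higher and 4 lower (40.7%, beside 40.1% of all genes). Their median was 0.09. Scaled by library totals, 15 were called higher and 3 lower. The adaptors Strada and Stradb, pseudokinases that activate the SIK-activating kinase LKB1, rose to 29.8 ± 4.15 CPM and 12.9 ± 1.496 CPM in knockdown, against 19.2 ± 2.13 CPM and 7.66 ± 0.714 CPM in WT libraries (log2 fold changes 0.63 and 0.75, adjusted p = 0.00275 and 0.00295). Ywhag, a 14-3-3 protein of the kind that holds phosphorylated CRTC, rose by 0.52 on the log2 scale (adjusted p = 0.000851), and Mark2, a kinase of CRTC2, fell by 0.46 (adjusted p = 0.00159). The phosphatase 2A catalytic gene Ppp2cb fell by 0.45 (adjusted p = 0.00177). Ppp4c, the catalytic subunit that SMEK1 joins, had 204 ± 15.8 CPM in knockdown and 231 ± 10.9 CPM in WT libraries, a log2 fold change of -0.18 that was not called (adjusted p = 0.102) except without knockdown A (0.0438) and with the within-group pattern as a covariate (0.0102). Ppp4r3b, which encodes SMEK2, fell by 0.74 (adjusted p = 0.0179) and lost its call in 7 of 18 alternatives, among them without knockdown A or C or without WT A or C (0.0595 to 0.0726). Ppp3r1, the calcineurin regulatory subunit, had 51.7 ± 8.94 CPM in knockdown and 51.7 ± 2.24 CPM in WT libraries (adjusted p = 0.996).

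At the membrane, 12 G protein and Gs-coupled receptor genes were tested, with 3 called higher, 3 lower (5 without knockdown B) and a median of -0.34. Gnas, the Gs alpha subunit itself, rose to 168 ± 10.3 CPM in knockdown, against 99.3 ± 8.94 CPM in WT libraries (log2 fold change 0.76, adjusted p = 4.63e-05). The prostaglandin receptors Ptger4 and Ptgir rose by 1.33 and 0.44 on the log2 scale (adjusted p = 0.000325 and 0.000502). The VIP receptor Vipr1, the beta adrenergic receptor Adrb1 and the adenosine receptor Adora2b fell by 3.68, 2.05 and 0.93 (adjusted p = 3.77e-05, 0.000229 and 0.00526), with only 11 counts of Vipr1 over the knockdown libraries. Of 4 tested adenylyl cyclases 2 were called higher and 0 lower, or 1 lower without knockdown B: Adcy9 rose by 0.66 (adjusted p = 0.00856), and Adcy6 had 26, 24 and 13 counts in knockdown libraries and 1, 4 and 0 counts in WT libraries (adjusted p = 0.0029).

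Downstream of cAMP, 16 genes of protein kinase A, EPAC and their anchors were tested, with 2 called higher, 2 lower and a median of -0.03. Without knockdown A, or with library totals as the scale, 4 were called higher, while 1 was called higher with knockdown C, WT A or WT C removed. Pkib, an inhibitor of protein kinase A, had 28.4, 27.6 and 27.2 CPM in knockdown libraries and 15.2, 15.2 and 16.3 CPM in WT libraries (log2 fold change 0.83, adjusted p = 0.000108). Akap1, which anchors the kinase to mitochondria, fell by 0.86 (adjusted p = 1.48e-05). Pkig, a second inhibitor gene, and the anchor Akap11 changed by 0.29 and -1.07 (adjusted p = 0.0214 and 0.00732), and lost their calls under 7 and 2 alternatives. Those of Pkig included the removal of knockdown C, of WT A or of WT C (adjusted p = 0.0571, 0.0762 and 0.0655). Among 8 other cAMP phosphodiesterases tested, 2 were called higher and 2 lower, with a median of 0.32. Pde4a, the sister of Pde4b, fell to 14.2 ± 1.42 CPM in knockdown, against 24.5 ± 1.18 CPM in WT libraries (log2 fold change -0.79, adjusted p = 0.000369), and Pde10a fell by 3.78 (adjusted p = 4.22e-05; 12 counts over the knockdown libraries). Pde8b rose by 1.32 (adjusted p = 0.000503) and Pde7a by 0.67 (adjusted p = 0.0353), and Pde7a lost its call under 7 alternatives, among them without knockdown A or C or without WT B or C (0.0693 to 0.153).

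**Figure D4:**
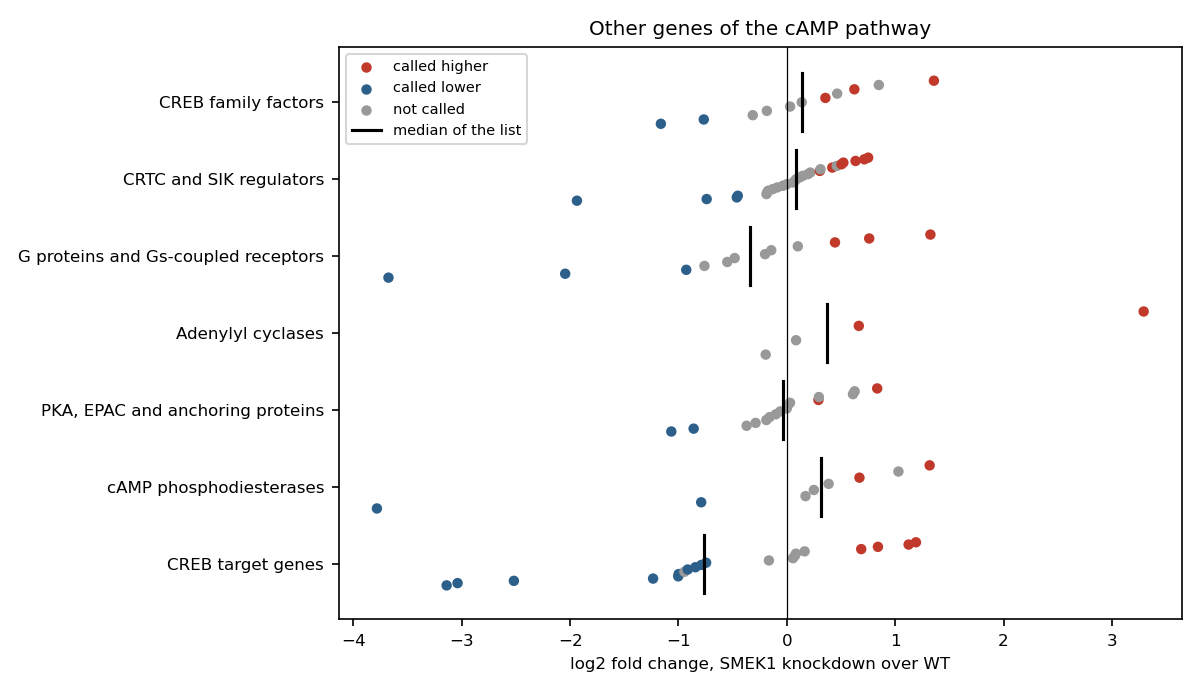
Log2 fold change, SMEK1 knockdown over WT, of each tested gene of 7 pathway lists; each point is a gene, red where called higher, blue where called lower at an adjusted p under 0.05 and grey otherwise, and the black line is the median of the list. Every list has genes on both sides of 0, and the list of CREB target genes has its median at -0.77.

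Known CREB target genes moved in both directions. Of 30 listed, 20 were tested, 4 were called higher and 10 lower (70.0% called, beside 40.1% of all genes), and the median log2 fold change was -0.77. The list was made with earlier results of these data known, so its share of calls is no independent evidence. Leaving out each library in turn gave 3 to 4 higher and 9 to 10 lower. Many of these genes also answer to serum and MAP kinase signalling. Fos, an immediate early gene, had 78.3, 47.6 and 37.3 CPM in knockdown A, B and C, against 343, 263 and 327 CPM in WT A, B and C, and its partner Fosb had 5.43, 4.00 and 3.43 CPM in knockdown libraries and 36.0, 25.5 and 43.8 CPM in WT libraries. Neither gene overlapped between groups (log2 fold changes -2.52 and -3.04, adjusted p = 5.05e-06 and 1.3e-06). Junb, another AP-1 gene, fell by 0.91 (adjusted p = 1.35e-05). In the other direction, the stress factor Atf3 had 256, 222 and 216 CPM in knockdown libraries and 105, 101 and 97.1 CPM in WT libraries, a log2 fold change of 1.19 (adjusted p = 1.23e-06). Rgs2, a brake on G protein signalling, and Tsc22d3, which glucocorticoids also induce, rose by 1.12 and 0.84 (adjusted p = 1.77e-06 and 4.47e-05). Genes listed at 0 in all libraries numbered 7, among them Egr1 and Bdnf; 3 counts over a group would be 0.0470 CPM in knockdown and 0.0574 CPM in WT libraries.

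**Figure D5:**
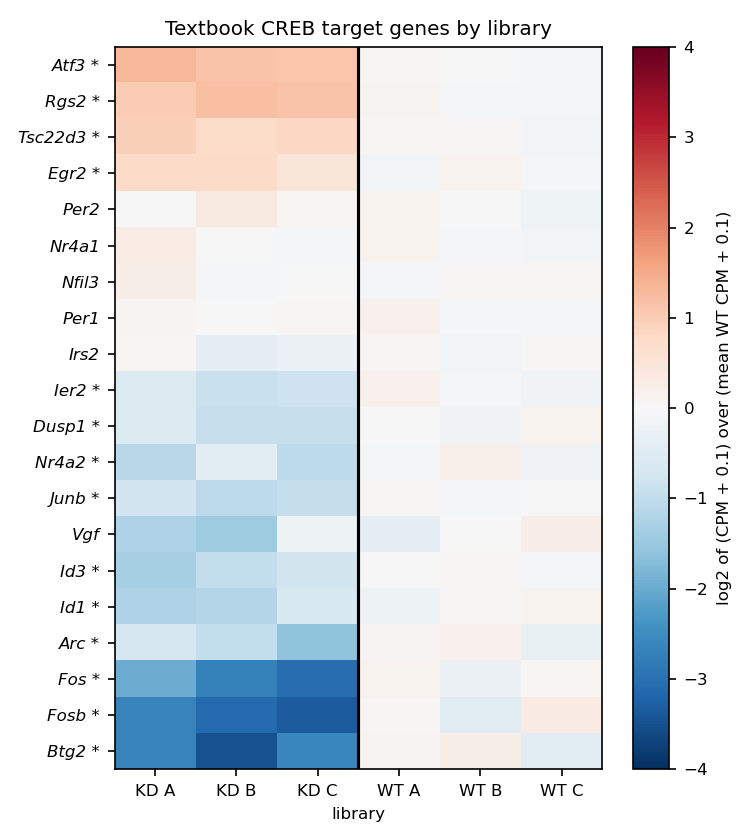
Heat map of the 20 tested CREB target genes (rows) in each library (columns, SMEK1 knockdown left of the line, WT right of it); colour is log2 of (CPM + 0.1) over (mean WT CPM + 0.1), red higher and blue lower than the WT mean, and asterisks mark an adjusted p under 0.05. The 4 genes called higher, Atf3 and Rgs2 at the top, are red in all 3 knockdown columns, Fosb and Fos are among the deepest blue there, and 6 genes carry no asterisk.

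Of the CREB targets 22 matched the promoter table, 19 held either form of the motif within 250 bases upstream in at least 1 of their windows, and Areg, Btg2 and Dusp1 held the palindrome. Over all 144 genes listed, 112 matched and 55 of them held either form, beside 19.8% of all genes counted the same way. These 55 include the 19 CREB targets, and the share covers all 27025 genes of the promoter table, tested here or not. A gene with more windows has more chances of a match, and numbers of windows were not evened out. The targets were listed as known CREB targets, so their motifs are no independent evidence. Areg had 0 counts in every library. The windows of Btg2, an antiproliferative gene, and Dusp1, a phosphatase of MAP kinases, are shown as the palindrome-bearing CREB targets that could be tested. They were chosen after their values were seen. In the other lists Creb5, Ppp2ca, Ywhah and Prkar1a also held the palindrome. All were tested and none was called (log2 fold changes 0.85, 0.22, 0.07 and -0.06, adjusted p = 0.0844, 0.0593, 0.549 and 0.563). The window of Btg2 is chr1:134079156-134079405 and that of Dusp1 chr17:26508473-26508722, both on the minus strand, and capitals mark the motif. The transcribed bases after the window were found in a GENCODE M21 transcript for Dusp1 but not for Btg2, whose start site rests on RefSeq alone.
Btg2: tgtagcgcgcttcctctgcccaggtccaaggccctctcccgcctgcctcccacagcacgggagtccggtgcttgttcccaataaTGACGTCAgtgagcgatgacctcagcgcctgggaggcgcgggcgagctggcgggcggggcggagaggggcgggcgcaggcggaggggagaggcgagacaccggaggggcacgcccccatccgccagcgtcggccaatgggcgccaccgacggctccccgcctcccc
Dusp1: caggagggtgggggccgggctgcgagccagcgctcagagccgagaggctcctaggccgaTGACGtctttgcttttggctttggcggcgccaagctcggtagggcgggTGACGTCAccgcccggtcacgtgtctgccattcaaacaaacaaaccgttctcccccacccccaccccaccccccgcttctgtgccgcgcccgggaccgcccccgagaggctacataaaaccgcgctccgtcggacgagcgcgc
The counts of Btg2 were 9, 5 and 11 in the knockdown libraries A to C, against 71, 69 and 44 in the WT libraries A to C (log2 fold change -3.14, SE 0.36, adjusted p = 3.97e-05). Dusp1 had 40.9, 31.9 and 31.4 CPM in knockdown libraries and 60.5, 54.0 and 65.4 CPM in WT libraries (log2 fold change -0.79, SE 0.12, adjusted p = 0.000293). Both were lower in every knockdown library than in any WT library.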

How the data were processed

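RNA of 3 SMEK1 knockdown and 3 WT libraries was sequenced. The authors deposited whole-number counts per gene and FPKM values, which each equal count over gene length with a scaling constant per library, and FPKM means per group, which were not needed; per the submitters' processing notes the build is GRCm38 (mm10). Aligner, counter and use of strand: not given in the sources used here. Counts were tested in R 4.3.3 with edgeR 4.0.16 (TMM scaling, filterByExpr, glmQLFit and glmQLFTest, no covariates), adjusted by Benjamini-Hochberg across the 12269 genes kept of 54532, and called at 0.05. Every adjusted p in the text is of this test unless another is named. Each log2 fold change is knockdown over WT; each SE is the size of the fold change over the square root of F. CPM are TMM-scaled, and a group is called lower or higher without overlap where the ranges of its 3 libraries are apart. Deposited FPKM set levels per length. The script was tested on simulated data first. Alternatives used DESeq2 1.42.0, limma 3.58.1, other scalings, filters and thresholds, the replicate letter, and each library left out.

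The 10 genes and the lists were chosen with earlier results of these data known. Named genes are the 10, Ppp4r3a, Ppp4c, Ppp4r3b, Ppp3r1 and up to 3 called genes with the smallest adjusted p per direction and list; the promoter examples were added later. Depth and the number of libraries limit precision: intervals of fold changes are at 95%, and counting without molecular identifiers means that floors cover counting error only.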

Additional observations from a re-analysis of the deposited data

How the results depend on the processing

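The 5 called genes (Crtc1, Crtc2, Atf1, Sik3 and Pde4b) kept direction and call under every alternative that could test them: 18 each, and 16 for Pde4b, which the minimum of 0.5 FPKM removed from the fits on FPKM. Log2 fold changes ranged over 0.33 to 0.58 for Crtc1, -0.42 to -0.21 for Crtc2, 0.33 to 0.57 for Atf1, -0.79 to -0.60 for Sik3 and -2.89 to -2.62 for Pde4b. Scaling by library totals moved the median of all genes by 0.16 and made 71.3% of 5461 calls higher. Calling at an adjusted p under 0.01 left 3181 genes in all and 15 pathway genes called higher and 19 lower, where 0.05 gave 23 and 23. With the replicate block 3326 genes were called and the 10 genes gave 2 higher and 3 lower, as before; the letters do not pair the libraries (correlations of deviations -0.56, -0.58 and -0.04), so this block is only a sensitivity check. A first within-group component as a covariate, added after the data were seen, called 6907. Sik2 and Ppp3r1, both near 0, changed sign: the Sik2 log2 fold change ranged over -0.0773 to 0.138 with each library left out, and the Ppp3r1 log2 fold change over -0.129 to 0.0768; Ppp3r1 was also -0.0105 with DESeq2 size factors and with DESeq2, -0.0104 with limma-voom, -0.0121 with the replicate block, -0.00767 with the covariate, and -0.0207 and -0.0224 on log2 FPKM with pseudocounts of 1 and 0.1. The cause was not tested. Genes of few counts, such as Pde4b and Adcy6, have folds limited by depth.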
